A study of Rattus norvegicus with 12 samples.

Results

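Cytokines, chemokines and their receptors were followed in the livers of rats that drank alcohol by choice and of rats that drank water. The genes were taken by name from the deposited expression table: names that begin with Ccl, Cxcl, Ccr, Cxcr or Il and a digit, names that begin with Tnfrsf or Tnfsf, and Tnf itself. These names took 172 transcript rows of 139 genes, and 105 of the genes had a level above 0 in at least 1 liver. They are 105 of the 15270 gene names, or 21718 transcripts, above 0 in the whole table. The other 34 genes were listed at 0 in all 12 livers. Where a gene had several transcripts, which was so for 16 of the 105, the transcript with the highest mean level stood for it.

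Chemokines are small secreted proteins that guide leukocytes along a gradient, and they act through receptors that couple to G proteins. Interleukins and members of the tumor necrosis factor (TNF) family are secreted or membrane-bound signals whose receptors feed into the JAK-STAT and NF-kB pathways. In the liver, Kupffer cells, the resident macrophages, are a major source of such signals, and hepatocytes answer interleukin-6 and interleukin-1 with the acute-phase response.

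The study compared 6 EtOH animals with 6 control animals, all of them female rats of the inbred alcohol-preferring strain iP10a. EtOH animals chose freely among water and 10, 20 and 30% ethanol by volume for 23 weeks, and control animals had water alone. Livers were collected at 38 weeks of age, except from EtOH animal 6, which was 39 weeks old. Poly(A) RNA of each liver gave 1 library, and levels are in RPKM, reads scaled to the length of the transcript and to the mapped reads of the library. Drinking was voluntary, so the dose was set by each animal, and the sources used here do not say whether the animals came from separate litters.

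Whole reads could be recovered from the RPKM values, as the smallest numbers that fit them, and they show how thin the data are for many of these genes. A liver held between 2610238 and 4318141 recovered reads in the control group and between 3945593 and 6030028 in the EtOH group. Of the 105 genes, 60 (57.1%) had a median of 3 or fewer reads over the 12 livers, which is called near the floor here, and 45 lay above it. Of all 21718 transcripts above 0, minor ones included, 12810 lay above this floor. All 12 livers showed a value above 0 for 44 genes, while 13 genes were seen in a single liver. Control livers showed 58 to 68 of the genes (64.7 ± 3.98, SD, n = 6) and EtOH livers 70 to 74 (72.2 ± 1.60, SD, n = 6). The EtOH libraries were deeper by their median (4302209 reads, against 3305919 in control livers), although the ranges of depth overlapped. After all libraries were thinned to the shallowest, control livers showed 56 to 67 genes (mean 61.8) and EtOH livers 64 to 66 (mean 65.1), so the ranges overlapped. Over the whole table and without thinning, 15378 to 15957 transcripts were above 0 in control and 15928 to 16574 in EtOH livers.

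**Figure D1:**
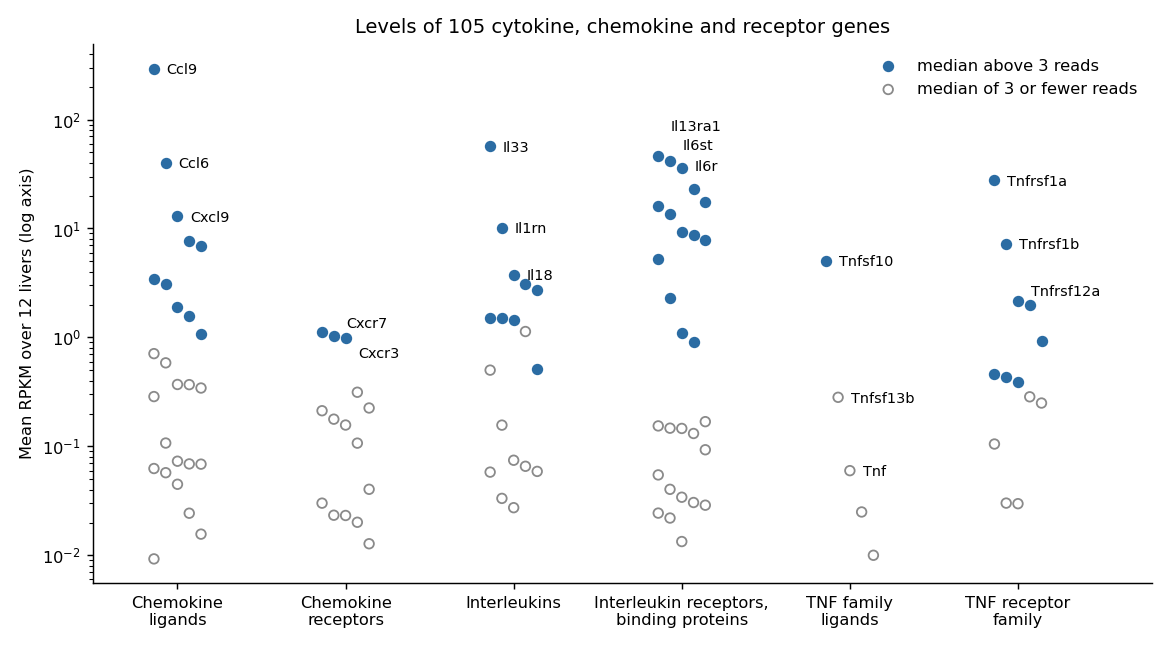
Mean RPKM over 12 livers (log axis) of the 105 genes, by role, with abundant genes of each role labelled. Filled points are the 45 genes with a median above 3 reads and open points the 60 genes near the floor, and only 13 genes reach a mean of 10 RPKM.

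A few genes of each role held most of its summed level. Ccl9, a CC chemokine, held between 36.0% and 43.0% of the summed RPKM of all 105 genes in a liver. Ccl9 had a mean of 299.8 ± 14.4 RPKM in control and 288.5 ± 9.45 RPKM in EtOH livers (SD, n = 6). Chemokine ligands together summed to 377.9 ± 17.7 RPKM in control and 374.6 ± 11.8 RPKM in EtOH livers, interleukin receptors and binding proteins to 215.9 ± 14.7 and 245.4 ± 21.6 RPKM, and interleukins to 74.1 ± 5.67 and 92.9 ± 9.03 RPKM. The TNF receptor family summed to 48.0 ± 5.94 RPKM in control and 35.7 ± 2.33 RPKM in EtOH livers. Chemokine receptors and TNF family ligands were scarce, with sums of 4.01 and 5.42 RPKM in control livers.

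Between the EtOH and the control livers, 6 of the 105 genes (5.71%) differed at an adjusted p below 0.05, against 2.42% of all 21718 transcripts (limma on quantile-normalized log2(RPKM + 0.5), Benjamini-Hochberg over all transcripts). Of these, 5 were higher in EtOH livers (Il33, Il13ra1, Il1r1, Il7r and Ccl6), where 1.13% of all transcripts were, and 1 was lower (Tnfrsf1b), where 1.29% were. All 6 lay among the 45 genes above the floor, of which they were 13.3%, against 3.92% of the 12810 transcripts above the floor (1.86% higher and 2.06% lower). At an unadjusted p below 0.05 stood 16 of the 105 genes (15.2%), against 15.5% of all transcripts, a share that does not set the genes apart. Above the floor, 29 of 45 genes (64.4%) had a log2 fold change above 0, against 51.8% of transcripts, with a median of 0.16 against 0.01. This tilt is from quantile-normalized values, and other scalings are not given for it. The median over all 105 genes changed sign with voom, though not without normalization. Each of the 105 genes stood as its most abundant transcript, while the shares of transcripts here and below count every transcript, minor ones included. The units therefore differ. With transcripts summed per gene, the share of all gene names called was above 5.71%, and the number is given below. Set against transcripts, the shares here do not show that these genes were called more often than genes in general. In whole liver, fewer cells of a type and less RNA per cell cannot be told apart.

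The split into higher and lower depended on how livers were scaled to each other. Without normalization between livers, all transcripts with a mean of at least 10 RPKM had a median log2 difference, EtOH minus control, of -0.14, and quantile normalization moved it to 0.000485. Unnormalized RPKM and voom on the recovered reads each gave 2 genes higher (Il33 and Il1r1) and 2 lower (Tnfrsf1b and Tnfrsf1a), in place of 5 and 1. Median scaling gave 5 and 1 again, with Il6st in the place of Ccl6. Fold changes below are from quantile-normalized values unless another scale is named, so they do not equal the ratio of the RPKM means.

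**Figure D2:**
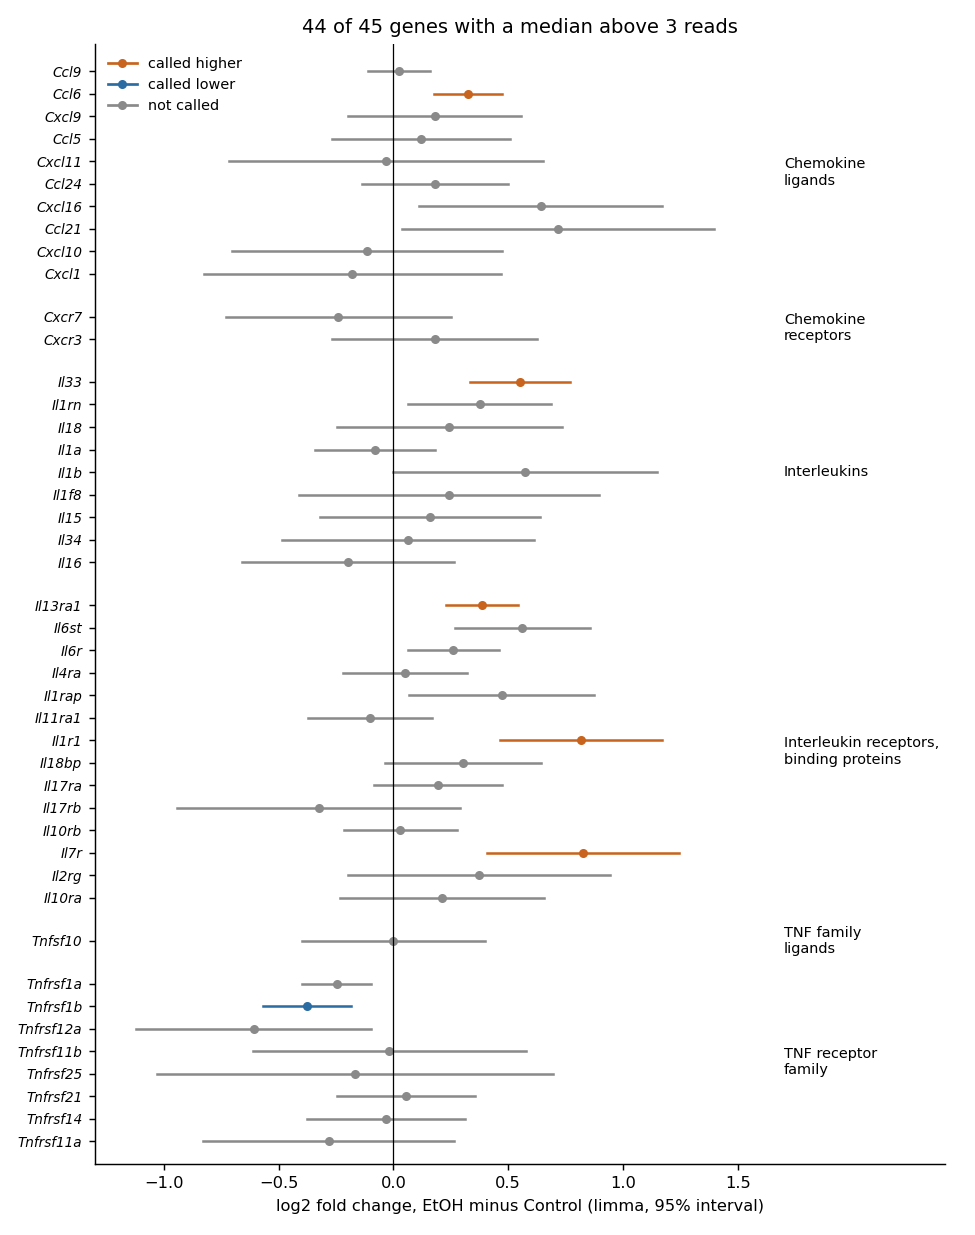
Log2 fold change, EtOH minus control, with its 95% interval for 44 of the 45 genes with a median above 3 reads, grouped by role and ordered by mean level within each role. Orange marks the 5 genes called higher, blue Tnfrsf1b, the 1 called lower, and grey the genes not called.

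Il33 encodes a cytokine of the interleukin-1 family that is held in the nucleus and acts as an alarm signal when cells are damaged. Control livers ran from 44.1 through a median of 47.9 to 58.3 RPKM, and EtOH livers from 52.8 through 65.9 to 73.5 RPKM. The ranges overlapped, since control animal 6 at 58.3 RPKM lay above EtOH animal 1 at 52.8 RPKM. The mean rose from 49.2 ± 5.06 to 64.4 ± 7.42 RPKM (SD, n = 6), a log2 fold change of 0.55 (SE 0.10, limma, adjusted p = 0.018). Its call held under each of these 4 scalings (quantile, none, median and voom) and whichever liver was left out (adjusted p from 0.00559 to 0.0436). Il1rl1, the receptor through which interleukin-33 signals, was near the floor, with 5 reads over all control and 12 over all EtOH livers. The authors list Il33 on chromosome 1 from 233670801 to 233685797 (the sources used here name no genome build for this and later positions).

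Il1r1 is the signalling receptor for interleukin-1. Control livers ran from 6.61 through 10.8 to 11.6 RPKM and EtOH livers from 11.7 through 16.4 to 24.2 RPKM. The groups did not overlap, although control animal 4 and EtOH animal 1 stood side by side. Il1r1 rose by 0.82 on the log2 scale (SE 0.16, limma, adjusted p = 0.0246), from a mean of 10.2 ± 1.82 to 16.9 ± 4.07 RPKM (SD, n = 6). The call was lost when control animal 2 or EtOH animal 2, 3 or 4 was left out, with adjusted p between 0.0505 and 0.0626, and with an unmoderated test on square-root values (adjusted p = 0.0522). In the authors' positions, Il1r1 (chromosome 9, 39433337 to 39473646) lies in a run of 5 of these genes, Il1r2, Il1r1, Il1rl2, Il1rl1 and Il18r1, and it alone was above the floor.

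The other genes of the interleukin-1 system described here were not called. Il1b, the inflammatory ligand of Il1r1, had a mean of 2.21 ± 0.982 RPKM in control and 3.23 ± 0.620 RPKM in EtOH livers (limma, adjusted p = 0.324), and the ranges overlapped. Il1a, the other ligand of Il1r1 and named after its values were seen, had 3.24 ± 0.340 and 2.92 ± 0.398 RPKM (log2 fold change -0.08, adjusted p = 0.773). Il1rn, the antagonist that occupies the same receptor, had 9.17 ± 1.58 and 11.0 ± 2.26 RPKM (adjusted p = 0.219). Il18, a related cytokine, had 3.42 ± 0.824 and 4.07 ± 1.44 RPKM (adjusted p = 0.649). Il1rap, the accessory chain shared by the receptors for interleukin-1 and interleukin-33, was chosen for mention after its values were seen. Its main transcript was above 20 RPKM in control animals 4 and 5 and EtOH animals 1, 2, 5 and 6, and a second transcript was listed at 0 in 4 of those 6 livers (control animals 4 and 5, EtOH animals 2 and 5).

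Il13ra1, a receptor chain for interleukin-13 and interleukin-4, was among the most abundant receptors. Control livers ran from 38.4 through 42.1 to 48.1 RPKM and EtOH livers from 43.1 through 50.2 to 54.1 RPKM. The ranges overlapped, with control animal 1 above EtOH animals 1 and 2. Il13ra1 rose by 0.39 on the log2 scale (SE 0.07, limma, adjusted p = 0.0198) and was called whichever liver was left out, but not without normalization (0.23, adjusted p = 0.0862) or with voom (0.25, adjusted p = 0.0807). The authors list it on chromosome X from 8758663 to 8820545.

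Il7r, the receptor chain for interleukin-7 that T cells carry, was the least abundant gene called. Control livers ran from 0.663 through 1.62 to 2.03 RPKM, the lowest of them resting on 7 reads, and EtOH livers from 2.26 through 2.97 to 3.93 RPKM. The groups did not overlap. Il7r rose by 0.82 on the log2 scale (SE 0.19, limma, adjusted p = 0.0457), and its call was kept in only 1 of the 12 fits that left out a liver, that without control animal 6. It was called with median scaling, but not without normalization (adjusted p = 0.0528) or with voom (adjusted p = 0.0514). Its listed position is chromosome 2, 59103992 to 59128004.

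Neither chain of the interleukin-6 receptor passed the test, though Il6st lay close to its threshold. Il6st, the signal-transducing chain gp130 that the table names IL6RB_RAT, ran from 26.0 through 35.8 to 45.4 RPKM in control livers and from 42.0 through 47.5 to 54.9 RPKM in EtOH livers. The ranges overlapped, with control animal 5 above EtOH animals 4 and 5. The log2 fold change was 0.56 (SE 0.14, limma, adjusted p = 0.0512). Il6st was called with median scaling (0.50, adjusted p = 0.0494), and also with a pseudocount of 0.1, a minimum mean of 0.1 or 1 RPKM, limma on square-root values and transcripts summed per gene (adjusted p from 0.0245 to 0.0468). It was called in 3 of the 12 fits that left out a liver, those without control animal 1, 5 or 6, but not without normalization (adjusted p = 0.0872) or with voom (adjusted p = 0.0802). Il6r, the chain that binds the ligand, had 34.9 ± 4.71 and 37.5 ± 5.27 RPKM (SD, n = 6, adjusted p = 0.175). Il6 itself was listed at 0 in all 12 livers, that is 0 of 48150058 recovered reads, where a count of 0 allows up to 3 reads.

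**Figure D3:**
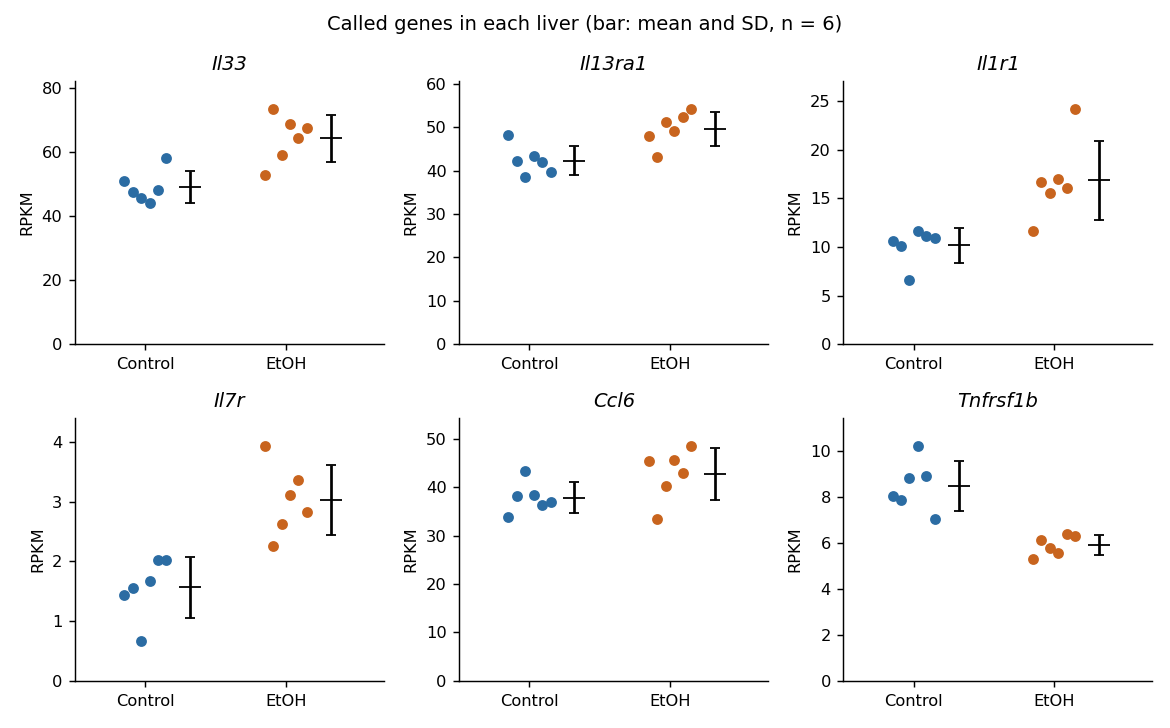
RPKM of the 6 called genes in each of 12 livers, with the mean and SD (n = 6) beside each group and every axis starting at 0. The groups are apart for Il1r1, Il7r and Tnfrsf1b and overlap for Il33, Il13ra1 and Ccl6.

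Ccl6 and Ccl9 are neighboring CC chemokine genes of rodents that are known from myeloid cells. Ccl6 ran from 33.8 through 37.6 to 43.4 RPKM in control livers and from 33.4 through 44.2 to 48.5 RPKM in EtOH livers. EtOH animal 2 had the lowest value of all 12 livers, and the EtOH range enclosed the control range. Ccl6 rose by 0.32 on the log2 scale (SE 0.07, limma, adjusted p = 0.0311), but by 0.17 without normalization (adjusted p = 0.38), 0.18 with voom (adjusted p = 0.312) and 0.26 with median scaling (adjusted p = 0.0988). It was called in 3 of the 12 fits that left out a liver, those without control animal 3, control animal 6 or EtOH animal 2. Ccl9 had a log2 fold change of 0.02 (95% interval -0.11 to 0.16), which turned to -0.05 without normalization and -0.04 with voom. Ccl6 (chromosome 10, 71659632 to 71665287) and Ccl9 are 8817 bases apart in the authors' positions, in a run with Ccl5, Ccl3 and Ccl4.

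The remaining chemokines gave no call. Cxcl9, a ligand of Cxcr3 induced by interferon gamma, had 12.8 ± 3.14 RPKM in control and 13.1 ± 2.62 RPKM in EtOH livers (SD, n = 6, limma, adjusted p = 0.649). Cxcl10, another ligand of Cxcr3, had 1.68 ± 0.792 and 1.49 ± 0.626 RPKM (adjusted p = 0.869), and Cxcl1, a neutrophil attractant, had 1.21 ± 0.816 and 0.951 ± 0.353 RPKM (adjusted p = 0.802). Ccl2, the main attractant of monocytes, gave 5 reads over all control and 10 over all EtOH livers, too few reads for a change to be seen. None of the run of 4 genes around it (Ccl2, Ccl7, Ccl11 and Ccl12) was above the floor, whereas all 3 genes of the run Cxcl11, Cxcl10 and Cxcl9 were.

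Chemokine receptors were measured at the edge of what these libraries hold, with 12 of 15 near the floor and 463 reads over all 12 livers. Cxcr3 had 0.875 ± 0.287 RPKM in control and 1.10 ± 0.344 RPKM in EtOH livers (limma, adjusted p = 0.689), and the scavenging receptor Cxcr7, now called Ackr3, had 1.15 ± 0.406 and 0.923 ± 0.339 RPKM (SD, n = 6, adjusted p = 0.649).

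The RPKM of both TNF receptors lay lower in EtOH livers, and neither gene's groups overlapped. Tnfrsf1b, the receptor TNFR2 that is mainly found on immune and endothelial cells, ran from 7.06 through 8.44 to 10.2 RPKM in control livers and from 5.32 through 5.98 to 6.41 RPKM in EtOH livers. Tnfrsf1b fell by 0.38 on the log2 scale (SE 0.09, limma, adjusted p = 0.0456), from a mean of 8.50 ± 1.09 to 5.93 ± 0.433 RPKM (SD, n = 6). It was called under all 4 scalings, but not with limma on square-root values (adjusted p = 0.0676), and in only 1 of the 12 fits that left out a liver, that without control animal 6. The authors list it on chromosome 5 from 163664139 to 163697484.

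Tnfrsf1a, the broadly expressed receptor TNFR1 that carries a death domain, ran from 28.8 through 30.1 to 39.7 RPKM in control livers and from 21.9 through 22.9 to 27.2 RPKM in EtOH livers. The groups did not overlap, but the log2 fold change of -0.25 (SE 0.07) did not pass the test (limma, adjusted p = 0.0875). Without normalization it was -0.40 (adjusted p = 0.0208) and with voom -0.39 (adjusted p = 0.0385). Tnfrsf12a, the receptor for the ligand TWEAK, had 2.68 ± 0.552 and 1.63 ± 0.708 RPKM (adjusted p = 0.225). Among all 105 genes, 4 (Il1r1, Il7r, Tnfrsf1b and Tnfrsf1a) had groups that did not overlap in RPKM, or 3.81%, against 3.1% of all transcripts. All 4 lay above the floor, where they were 8.89% of the 45 genes, against 5.14% of transcripts.

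Ligands of the family were scarce. Tnf itself gave 3 reads over all control and 2 over all EtOH livers. Tnfsf10, the death ligand TRAIL, was the only ligand above the floor, with a median of 5.41 RPKM in control and 4.83 RPKM in EtOH livers and a log2 fold change of -0.0004 (95% interval -0.40 to 0.40). Tnfsf13b, the B cell survival factor BAFF, gave 4 reads over control and 17 over EtOH livers (adjusted p = 0.436). Il10, a cytokine that restrains macrophages, gave 2 reads in all, both in EtOH livers.

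**Figure D4:**
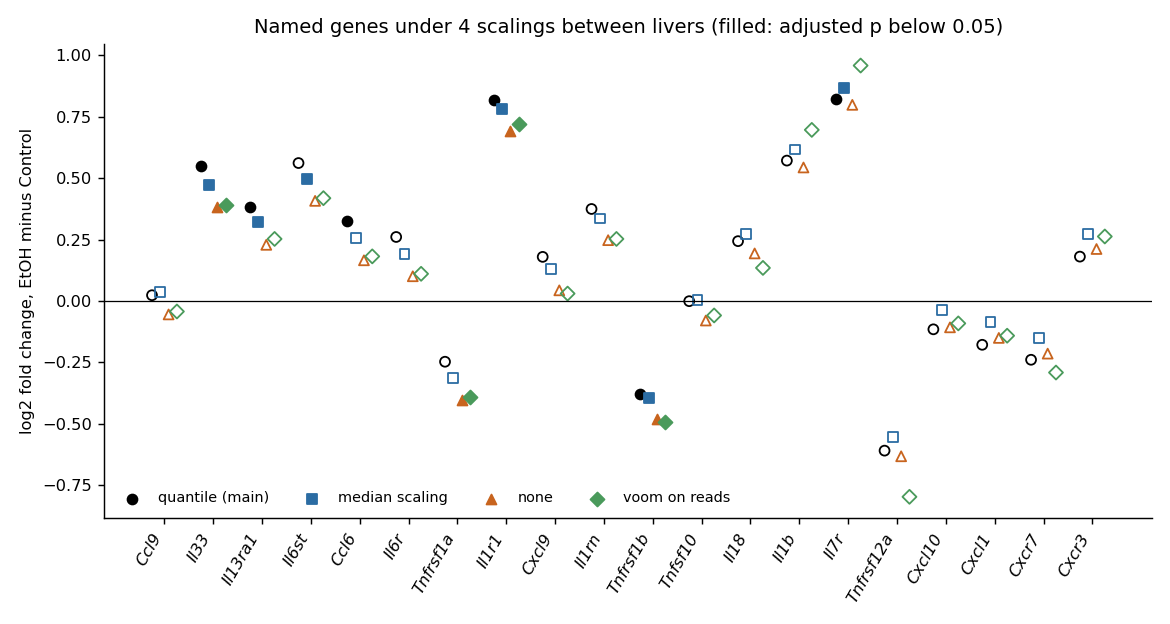
Log2 fold change, EtOH minus control, of named genes above the floor under 4 scalings between livers, with filled symbols for an adjusted p below 0.05. Il33, Il1r1 and Tnfrsf1b are filled under all 4, and Ccl9 lies on either side of 0.

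Promoter windows from RefSeq (GRCr8) are shown for the called genes, and for Ccl9 as the neighbor of Ccl6 that was not called; whether the 2 genes differed in response was not tested. A window, the 250 bases before an annotated start, was found for 78 of the 105 genes, 81 windows in all. A match to the NF-kB motif on either strand stood in 14 of the 81 (17.3%), against 6.33% of 33469 rat windows, and in 1 of the 7 windows of the called genes. The TATA box (TATAAA) stood in 24.7% against 12.9%, the AP-1 motif (TGANTCA) in 11.1% against 6.34%, the STAT motif (TTCNNNGAA, where N is any base) in 9.88% against 7.67%, and the GC box (GGGCGG) in 34.6% against 30.5%. A match describes these letters and is not evidence of a bound site.

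The windows of the called genes and of Ccl9 are given from 5′ to 3′ on the strand of the gene, ending at the base before the start, with matches to these motifs on either strand in capitals. Il33 has 2 annotated starts, the second with a TATA box 29 to 24 bases before it. Il13ra1 has 3 GC boxes, of which a pair overlap by 1 base. Il1r1 has an NF-kB match 135 to 126 bases before the start and a GC box 61 to 56 bases before it. Il7r has no match. Ccl6 has a TATA box 32 to 27 bases before its start, and Ccl9 has a TATA box match 165 to 160 bases and an NF-kB match 106 to 97 bases before its own. Tnfrsf1b has an AP-1 match 186 to 180 bases before the start and 3 GC boxes. Over 88 aligned bases, the best local match between the Ccl6 and Ccl9 windows, 64 bases (72.7%) were identical.
Il33, start 1 (GRCr8, chr1:237115323-237115572, plus strand): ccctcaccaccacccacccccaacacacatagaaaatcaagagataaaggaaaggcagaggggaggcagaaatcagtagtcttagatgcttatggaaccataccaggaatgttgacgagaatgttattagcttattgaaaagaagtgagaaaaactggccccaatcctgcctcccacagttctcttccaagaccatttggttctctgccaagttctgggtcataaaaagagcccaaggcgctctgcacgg
Il33, start 2 (GRCr8, chr1:237134696-237134945, plus strand): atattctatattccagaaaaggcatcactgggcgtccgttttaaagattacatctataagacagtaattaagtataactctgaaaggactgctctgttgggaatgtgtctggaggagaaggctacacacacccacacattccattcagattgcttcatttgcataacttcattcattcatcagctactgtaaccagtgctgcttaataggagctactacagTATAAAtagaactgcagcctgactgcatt
Il13ra1 (GRCr8, chrX:120214355-120214604, plus strand): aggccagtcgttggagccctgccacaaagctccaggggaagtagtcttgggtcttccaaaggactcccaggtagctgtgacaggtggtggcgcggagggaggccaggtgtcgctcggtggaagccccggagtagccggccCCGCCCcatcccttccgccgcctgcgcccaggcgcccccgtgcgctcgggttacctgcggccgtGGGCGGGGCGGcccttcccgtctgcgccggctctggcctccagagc
Il1r1 (GRCr8, chr9:50034133-50034382, plus strand): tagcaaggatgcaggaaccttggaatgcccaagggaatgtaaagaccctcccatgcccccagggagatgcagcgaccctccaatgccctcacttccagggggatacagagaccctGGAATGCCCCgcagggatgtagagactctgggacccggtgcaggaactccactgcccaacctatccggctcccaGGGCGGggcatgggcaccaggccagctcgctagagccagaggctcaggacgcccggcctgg
Il7r (GRCr8, chr2:60204918-60205167, minus strand): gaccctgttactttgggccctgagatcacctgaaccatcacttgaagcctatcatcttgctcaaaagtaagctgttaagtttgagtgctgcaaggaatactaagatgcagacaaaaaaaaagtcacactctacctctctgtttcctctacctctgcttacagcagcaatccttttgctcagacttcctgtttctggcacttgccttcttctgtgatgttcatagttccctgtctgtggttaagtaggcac
Ccl6 (GRCr8, chr10:68883367-68883616, minus strand): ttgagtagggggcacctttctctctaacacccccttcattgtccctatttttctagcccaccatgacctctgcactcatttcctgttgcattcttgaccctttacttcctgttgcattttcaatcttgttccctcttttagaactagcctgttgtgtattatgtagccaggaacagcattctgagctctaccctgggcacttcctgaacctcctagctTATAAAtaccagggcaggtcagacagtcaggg
Ccl9 (GRCr8, chr10:68868878-68869127, minus strand): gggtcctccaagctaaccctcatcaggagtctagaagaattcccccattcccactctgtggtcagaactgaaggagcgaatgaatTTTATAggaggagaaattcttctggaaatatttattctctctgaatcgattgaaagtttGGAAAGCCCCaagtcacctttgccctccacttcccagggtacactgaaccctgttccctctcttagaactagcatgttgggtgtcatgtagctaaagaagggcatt
Tnfrsf1b (GRCr8, chr5:162387412-162387661, minus strand): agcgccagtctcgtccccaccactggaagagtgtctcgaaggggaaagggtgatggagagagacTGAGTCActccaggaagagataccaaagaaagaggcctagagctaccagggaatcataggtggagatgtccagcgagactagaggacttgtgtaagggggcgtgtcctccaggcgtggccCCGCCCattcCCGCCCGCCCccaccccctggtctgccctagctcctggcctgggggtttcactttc

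The pathways that these receptors feed were described from lists of signalling genes. Of 28 measured signal transducers of TNF and interleukin-1, 1 was called higher and 0 lower. That gene was Birc2, a ubiquitin ligase of the TNF receptor complex, with 9.81 ± 1.27 RPKM in control and 12.3 ± 0.979 RPKM in EtOH livers (SD, n = 6, log2 fold change 0.43, limma, adjusted p = 0.0467). Its call was lost under every other scaling and in 11 of the 12 fits that left out a liver. Of 22 genes of JAK-STAT signalling, 0 were called. Stat3, the transcription factor downstream of gp130, had the smallest p among them, with 28.7 ± 3.51 and 32.9 ± 3.12 RPKM (adjusted p = 0.097). Of 35 cytokine and receptor genes outside the name rule, 0 were called, the smallest p being that of Tgfbr1, a receptor for transforming growth factor beta (7.90 ± 1.06 and 10.2 ± 1.41 RPKM, adjusted p = 0.0669). Among all transcripts 2.42% were called, and 0 or 1 call in lists of this size does not set them apart. The median log2 fold changes of these 3 lists were 0.05, 0.16 and 0.08, against 0.00019 over all transcripts.

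Hepatocyte acute-phase genes, which respond to interleukin-6 and interleukin-1, did not move in a single direction. Of 14 measured, 1 was called higher and 1 lower, with a median log2 fold change of 0.04. Among all transcripts 1.13% were called higher and 1.29% lower, and single calls in a list of this size do not set it apart. Hamp, which encodes the iron hormone hepcidin, ran from 452.0 to 861.8 RPKM in control and from 237.5 to 361.8 RPKM in EtOH livers, with no overlap. Hamp fell by 0.82 on the log2 scale (SE 0.16, limma, adjusted p = 0.0224), with the call lost when control animal 2 or EtOH animal 3 was left out (adjusted p 0.0514 and 0.0525) and with the unmoderated test on square-root values (adjusted p = 0.0631). Crp, which encodes C-reactive protein, had 4763 ± 333 and 5706 ± 681 RPKM (log2 fold change 0.33, adjusted p = 0.0438), and its call was lost with each of the other 3 scalings and in 11 of the 12 fits that left out a liver.

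Some markers of Kupffer and endothelial cells were called higher in EtOH livers. Of 8 measured Kupffer cell markers, 3 (Clec4f, Cd163 and Vsig4) were called higher, and all 8 had a log2 fold change above 0. Their summed level ran from 195.3 to 297.4 RPKM in control and from 253.3 to 303.7 RPKM in EtOH livers, with none of the 8 at 0. Of 4 endothelial markers, 1 (Cdh5) was called higher, and all 4 had a log2 fold change above 0. They summed to between 27.7 and 35.3 RPKM in control and between 32.7 and 45.5 RPKM in EtOH livers, and the ranges of both sums overlapped. Among all transcripts 1.13% were called higher, and among those above the floor 51.8% had a log2 fold change above 0. These marker calls, and those of the next paragraph, are from quantile-normalized values alone, and other scalings are not given for them. The part of Kupffer and endothelial cells in the changes of Il33, Il1r1, Il13ra1 and Ccl6 was not tested.

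Leukocyte markers were at lower levels. The 10 measured markers of T and NK cells summed to between 6.33 and 8.37 RPKM in control and between 6.08 and 10.6 RPKM in EtOH livers, with 0 called, beside the call of Il7r. Of 5 measured B cell markers, only Cd79a was called, higher, listed at 0 in the control livers and at a mean of 0.433 RPKM in EtOH livers. With a median of 0 reads, Cd79a was near the floor. Of the 5, 4 had a log2 fold change above 0 and 1 below 0 (Cd79b, 0.132 RPKM in control and 0.0703 RPKM in EtOH livers). Pax5 was listed at 0 in all livers. Of 6 neutrophil markers, Mpo and Elane were listed at 0 in all livers, and 0 of the other 4 were called. All 5 stellate cell markers had a log2 fold change above 0, with 0 called, and the 3 bile duct markers gave 0 calls. The 5 measured hepatocyte markers summed to between 68050 and 96570 RPKM in control and between 77090 and 103600 RPKM in EtOH livers, and Cps1 was called higher. The part of leukocytes in the change of Il7r and Tnfrsf1b was not tested.

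**Figure D5:**
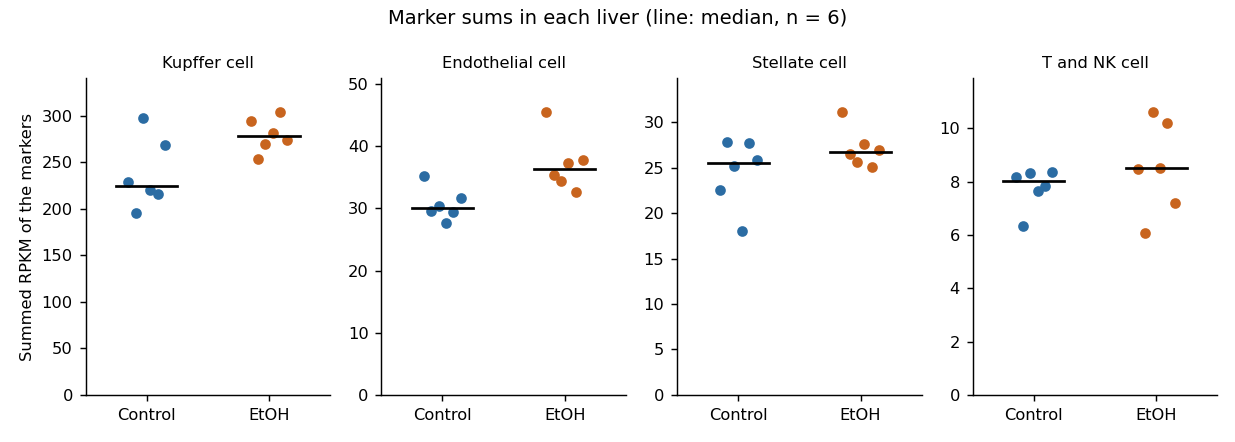
Summed RPKM of the markers of 4 cell types in each liver, with a line at the group median (n = 6) and axes starting at 0. The Kupffer cell medians are 224.4 in control and 277.8 in EtOH livers and the endothelial medians 30.0 and 36.3, while the ranges overlap in all 4 panels.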

How the data were processed

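The authors mapped paired-end reads of poly(A) RNA with CLCbio Genomics Workbench 4.9 and deposited RPKM for 34391 transcripts in 12 livers, 1 library per animal. Genome build, annotation and the handling of strand are not given in the sources used here. Reads of overlapping genes cannot be told apart. The table also holds columns of the authors' own comparison (a fold change with its statistic, p-value and FDR), which were not used. Whole reads were recovered for 100.0% of the 21718 transcripts above 0, within 0.01 read, as the smallest whole numbers in the ratios of the depth-corrected RPKM values. By this rule the 2052 transcripts above 0 in a single liver are set to 1 read. Other counts are known only up to a common factor, so low read numbers are the least that the values allow. Levels near the floor are limited by counting error, and a count of 0 allows up to 3 reads.

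For each transcript above 0, log2(RPKM + 0.5) was quantile normalized and the 6 EtOH animals were compared with the 6 control animals by limma 3.58.1 in R 4.3.3, using a mean-variance trend and no filter, with Benjamini-Hochberg adjustment over all 21718 and a threshold of 0.05. Fold changes on this scale understate those of low genes. P-values measure the spread between animals. Python 3.11.15, numpy 2.4.6 and pandas 2.3.3 did the rest. The procedure was also run on simulated data, where the changed transcripts lay above the floor and changed more than the called genes did. That run does not bear on smaller changes or on genes near the floor.

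Genes named are those called, the 3 most abundant of each role, the 5 with the smallest p, Tnf, Il1b, Il6, Il10, Ccl2, Cxcl1, Cxcl10 and Tnfrsf1b whatever their values, genes above the floor whose groups did not overlap, and called genes of each pathway list, or the gene with the smallest p. Of these, 1 gene is not reported here, though it stays in every count and fit. Members and lists were chosen with earlier results of these data known. List genes and promoters were matched by symbol or older symbol to RefSeq (GRCr8), whose sequences are printed, and unmatched list genes were not analysed here. Alternatives were pseudocounts of 0.1 and 1, no normalization, median scaling, square-root values, no trend, minimum mean RPKM of 0.1 and 1, voom on recovered reads, the animal number as a block, transcripts summed per gene, each liver left out, other definitions of the floor, and thinning in 20 draws.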

Additional observations from a re-analysis of the deposited data

Results flagged for a closer look

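In each of 2 genes, 1 control liver stood apart from the other 5 by Dixon's test, which flags about 1 in 20 groups by chance. Control animal 3 had the lowest Il1r1, at 6.608 RPKM, where the nearest of the others had 10.06 RPKM, and the highest Tnfrsf1a, at 39.74 RPKM, where the nearest had 31.53 RPKM. Without that animal, Il1r1 was still called and Tnfrsf1a was not. In Hamp, outside these genes, control animal 3 was also the highest control, at 861.8 RPKM, where the nearest had 593.0 RPKM.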

How the results depend on the processing

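All 6 calls kept their direction in every alternative run. Over all transcripts 526 were called, against 860 at a minimum mean of 1 RPKM and 322 with the unmoderated test on square-root values. Transcripts summed per gene gave 977 calls over 15270 gene names. The 6 of 105 genes called in the main fit were not a larger share than this. With a liver left out, 212 (without EtOH animal 2) to 656 transcripts were called. Of the 105 genes, 6 were called, against 3 with the unmoderated square-root test and 2 to 7 with a liver left out (2 without control animal 2, EtOH animal 3 or EtOH animal 4, 7 without control animal 6). Of these, 5 were higher, against 2 without normalization, 2 with voom, 3 with the unmoderated square-root test and 2 to 6 with a liver left out. Of these, 1 was lower, against 2 without normalization, 2 with voom, 0 with either square-root test and 0 to 1 with a liver left out. Listed pathway genes called were 3, against 1 with median scaling, 5 at a minimum mean of 1 RPKM, 1 with the unmoderated square-root test and 0 to 5 with a liver left out. The median log2 fold change of the genes was 0.06, against 0.18 at a minimum mean of 1 RPKM, 0.18 with a pseudocount of 0.1 and -0.0122 with voom.

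With the animal number as a block (paired), 113 transcripts, 0 of the 105 genes and 0 listed pathway genes were called (adjusted p from 0.0659 for Il1r1 to 0.15 for Tnfrsf1b among the 6). The sources used here state no pairing by number. Same-numbered animals correlated between -0.07 and 0.03 in their deviations. Of 6 control animals 1, and of 6 EtOH animals 0, correlated best with their own number. Such correlations cannot exclude a pairing that touches few genes, so the loss of all 6 calls in this fit remains a limit.

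Genes without a call changed sign as follows. Tnfsf10 had 0.00461 with median scaling, 0.000262 with a pseudocount of 1, 0.00244 on square-root values, and -0.0883 to 0.108 with a liver left out. Ccl9 had -0.0544 without normalization, -0.0424 with voom, and -0.0235 to 0.0501 with a liver left out. With a liver left out, Cxcl1 ran from -0.31 to 0.00329 and Cxcl10 from -0.25 to 0.0052. The cause of these changes was not tested. The genes near the floor numbered 60, against 35 by a mean RPKM below 0.1, 36 by a value above 0 in fewer than 6 livers, and 60 to 62 with a liver left out. EtOH livers showed 72.2 genes, against 69.8 above 0.1 RPKM and 65.1 after thinning. A median of 3 or fewer reads was found for 60 of the 105 genes, and none of these was called. The parts of depth and of low expression in these counts were not tested.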
